A study of Mus musculus with 60 samples.

Results

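RNA-seq counts were examined for D/KO tail tip fibroblasts between day 2 and day 4 of induced reprogramming, without enhancers. These 6 libraries, 3 at each day, are all the D/KO libraries of the 2 days without VC among the 60 libraries of the series, and they were found by their labels. D/KO denotes fibroblasts labelled 4FJ_ERCC1_(d/-), which carry 1 shortened and 1 null allele of Ercc1 together with a doxycycline-inducible Oct4, Sox2, Klf4 and c-Myc cassette in the Col1a1 locus and the M2-rtTA activator in the ROSA26 locus. They were a single early passage line from a male mouse of 8 weeks, grown in low oxygen and given 2 µg/ml doxycycline for 2 or 4 days. The comparison groups, also of 3 libraries each, were the same cells at day 0, the same cells with VC at days 0, 2 and 4 (3 µM of the GSK3 inhibitor CHIR99021 plus ascorbic acid at 50 µg/ml, at day 0 without doxycycline), and WT fibroblasts labelled 4FJ_(+/-)_OCT4-GFP without VC at days 0, 2 and 4. The donor of the WT line was female and 22 weeks old, so that genotype, sex, age and reporter all change with the line. All day 2 and day 4 libraries came from cells on doxycycline, and time on the drug and time in culture therefore cannot be told apart. Nothing in the labels says that the 3 libraries of a group were separate cultures, so the p-values measure the spread between libraries, which may be technical.

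Ercc1 is the partner of Xpf in the endonuclease that cuts damaged strands in nucleotide excision repair and in the repair of crosslinks, and its loss gives a premature ageing syndrome in mice. In fibroblasts, the 4 factors first silence the mesenchymal programme and open an epithelial one, while the endogenous pluripotency network comes on late and in few cells. The interval from day 2 to day 4 lies within this initiation phase.

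Library totals ran from 17008108 to 18437695 counts. The distance between libraries was the root mean square log2 difference over all tested genes, with 2 added to each value in CPM. Libraries 2 and 3 of day 4 lay 0.36 apart. This was farther than library 3 was from library 3 of day 2 (0.334) or library 2 from library 2 of day 2 (0.35). Library 1 of day 4 lay 0.229 and 0.269 from libraries 2 and 3 of that day. Some list counts below are given also without library 3. Ercc1 itself (ENSMUSG00000003549, chr7:19078703-19090449, GRCm39) read 9.78, 11.03 and 13.0 CPM (counts scaled to library size after TMM normalisation) at day 2 and 9.61, 9.35 and 10.1 CPM at day 4. The libraries of the 2 days overlapped (log2 fold change -0.22 ± 0.17 SE, adjusted p = 0.531), and Ercc1 averaged 24.3 ± 4.22 CPM in WT cells at day 2 and 17.6 ± 0.696 CPM at day 4 (SD, n = 3), a called fall (log2 -0.46, adjusted p = 0.0368 by edgeR). The difference between the lines in this change did not pass (adjusted p = 0.586 by edgeR). Polr1g overlaps Ercc1 on the opposite strand and the strand setting of the counting is not given in the sources used here.

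The induced factors were on at both days. Pou5f1, which encodes Oct4, read 62.2, 68.2 and 76.0 CPM at day 2 and 70.9, 42.8 and 78.4 CPM at day 4, against 0.471 to 1.1 CPM at day 0. Sox2, Klf4 and Myc had log2 fold changes of -0.10, -0.13 and -0.10 from day 2 to day 4, and none of the 4 passed the test. Library 2 of day 4 had the lowest level of each of these factors among the 6 libraries. Transgene reads and reads of the endogenous genes are not separable in these counts.

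From day 2 to day 4, 712 genes rose and 803 fell among 15832 tested (edgeR quasi-likelihood test, Benjamini-Hochberg adjusted p below 0.05). That is 4.5% of all tested genes higher, 5.07% lower and 9.57% in either direction, the background against which the gene lists below are read. The changes were small, with a median absolute log2 fold change of 0.683 among called genes, and 251 rose and 198 fell by at least 1 on the log2 scale. The median log2 fold change over all genes was -0.00908. The 3 day 4 libraries lay above all 3 day 2 libraries in 11.4% of genes and below them in 13.9%. Without library 3 of day 4, 764 genes rose and 915 fell, and these held 618 of the 712 and 656 of the 803. Without library 1 of day 4, only 500 genes fell.

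Among called genes with a mean of at least 5 CPM at either day and no overlap between the days, the largest rise was in Myoc, which encodes the secreted glycoprotein myocilin (chr1:162466724-162477262, GRCm39). It read 3.85, 3.89 and 1.74 CPM at day 2 and 68.2, 59.9 and 33.0 CPM at day 4, a 17.0-fold rise (log2 4.09 ± 0.34, adjusted p = 5.55e-10). It was at 0 in 2 of the 3 day 0 libraries. Nos1, the neuronal nitric oxide synthase, went from 2.24, 2.44 and 3.54 CPM to 36.9, 32.1 and 33.5 CPM, 12.4-fold. Mal, a raft-associated membrane proteolipid of myelin and of polarised epithelia, read 45.0, 46.0 and 68.7 CPM at day 2 and 510, 558 and 420 CPM at day 4 (9.32-fold, adjusted p = 7.6e-16). All 3 day 4 libraries lay above all 3 day 2 libraries in each of these genes, as the choice of genes without overlap required.

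A further 8 of the 12 largest rises included a growth factor and epithelial genes. Fgf4, a growth factor of early embryonic cells, was absent at day 0, read 0.863, 1.1 and 0.818 CPM at day 2 and 7.38, 6.48 and 6.37 CPM at day 4. Laptm5, a lysosomal protein of blood cells, rose 6.25-fold from 17.5, 17.5 and 17.9 CPM to 119, 133 and 78.3 CPM. Lad1, the basement membrane protein ladinin, rose 5.93-fold, and the keratins Krt90 and Krt80 rose 5.55-fold and 5.52-fold. Pitpnm3, a phosphatidylinositol transfer protein, rose 9.71-fold, Dqx1 6.41-fold, and Shisa2, which holds back Wnt and FGF receptors, 5.57-fold. Library 3 was the lowest of the day 4 libraries in Myoc, Mal and Laptm5.

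The 12 largest falls included genes that endothelium uses. Lyve1, the hyaluronan receptor of lymphatic endothelium (chr7:110449814-110462446, GRCm39), fell 19.3-fold from 8.68, 9.17 and 5.23 CPM to 0.217, 0.47 and 0.486 CPM (log2 -4.27 ± 0.42, adjusted p = 5.97e-09), after 43.8 to 48.6 CPM at day 0. Dll4, the Notch ligand of arterial and sprouting vessels, fell 14.3-fold from 5.87, 6.38 and 4.85 CPM to 0.489, 0.209 and 0.486 CPM. Ednrb, an endothelin receptor, fell 5.44-fold, Apold1, an early response gene of endothelium, 4.42-fold, and Cldn5, the tight junction claudin of vessels, 4.35-fold. Fabp4, the fatty acid chaperone of adipocytes and capillary endothelium, went from 15.2, 13.9 and 12.8 CPM to 1.85, 3.87 and 2.1 CPM. No day 4 library reached the level of any day 2 library in these genes, as the same choice of genes without overlap required.

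The other large falls were of mixed kinds. Aldh1l2, a mitochondrial enzyme of one-carbon metabolism, fell 4.42-fold from 94.5, 89.1 and 114 CPM to 19.5, 16.2 and 31.6 CPM (adjusted p = 3.65e-10). Kit, the stem cell factor receptor, fell 4.42-fold and the adhesion receptor gene Adgrg3 6.56-fold. Lrrc55, which encodes an auxiliary subunit of potassium channels, fell 5.84-fold, Depp1 5.13-fold and Nrros, which anchors latent TGFb on myeloid cells, 4.32-fold. These rises and falls all passed also with DESeq2 and with any 1 of the 6 libraries left out. Among them, Myoc, Nos1, Krt90, Krt80, Dll4, Aldh1l2 and Lrrc55 overlap another gene on the opposite strand, and reads of such pairs cannot be told apart without the strand setting. Further on the same holds for some genes, including Avil, Stab1, Psph, Shmt2, Ube2c, Prc1, Fancd2, Id4, Penk, Pi15 and Sbspon.

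**Figure D1:**
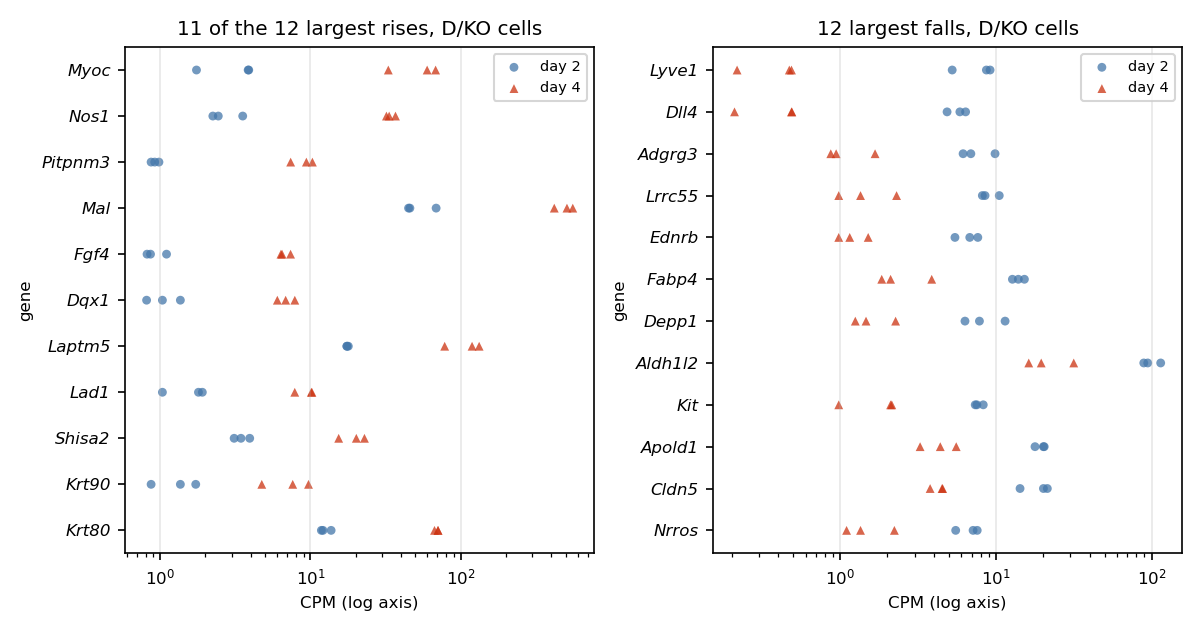
CPM on a log axis of 11 of the 12 genes with the largest rise (left) and the 12 with the largest fall (right), within the same limits on level and overlap, in D/KO cells without VC, with 1 point per library at day 2 (circles) and day 4 (triangles). In every row the 3 day 4 points lie apart from the 3 day 2 points, as the choice of genes required. Myoc at the top left moves from 1.74 to 3.89 CPM up to 33.0 to 68.2 CPM.

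Markers of other cell types were read beside these changes. Of 8 endothelial markers, Pecam1, Cdh5, Kdr, Emcn, Cldn5 and Erg fell, while Tek and Tie1 did not pass, and their summed level went from 802 to 882 CPM at day 0 through 608 to 689 CPM at day 2 to 399 to 445 CPM at day 4. Cdh5, the VE-cadherin of endothelial junctions, read 133, 130 and 156 CPM at day 2 and 54.5, 55.3 and 55.2 CPM at day 4 (log2 -1.35, adjusted p = 1.16e-06). Pecam1, the adhesion molecule CD31, read 188, 160 and 196 CPM and then 134, 128 and 116 CPM. In WT cells Pecam1 stayed at or below 0.565 CPM at both days and Cdh5 at or below 0.668 CPM. The part of a change in cell make-up in the falls of endothelial genes was not tested, and in bulk libraries fewer cells of a type and less RNA per cell cannot be told apart.

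The label gives fibroblasts, and all 10 fibroblast markers were detected in every group, with a summed level of 43028 to 44918 CPM at day 2 and 29133 to 31068 CPM at day 4. The same D/KO libraries also carried the endothelial markers above, whose sum at day 0 was 802 to 882 CPM against 14.9 to 17.5 CPM in WT cells, and whether the D/KO line held endothelial cells was not tested. Of the 10 fibroblast markers, Col1a1, Col1a2, Col3a1 and Lum fell and Dcn and Prrx1 rose, while Pdgfra, Pdgfrb, Thy1 and Twist2 did not pass. The collagens Col1a1, Col1a2 and Col3a1 made up most of the fibroblast sum. Keratinocyte markers summed to 20.2 to 28.8 CPM at day 0, 337 to 378 CPM at day 2 and 604 to 741 CPM at day 4, with Krt14, Col17a1 and Itgb4 called higher. Itgb4, an integrin of hemidesmosomes, made up most of the sum, at 334 ± 16.7 CPM on day 2 and 634 ± 70.1 CPM on day 4 (SD, n = 3), while Krt5 averaged 0.303 and 0.306 CPM and Trp63 1.61 and 1.31 CPM, neither past the test. Leukocyte markers summed to 8.3 to 9.89 CPM at day 2 and 6.84 to 7.6 CPM at day 4, and all day 4 sums lay below those of day 2. Among adipocyte markers Adipoq, Cidec and Lep were at 0 at both days while Fabp4 carried the fall from 14.2 to 15.9 CPM to 2.55 to 5.17 CPM. Among the other marker lists, Sox9 fell in the chondrocyte and osteoblast list, which summed to 44.0 to 60.6 CPM and then 30.7 to 43.2 CPM, and Tubb3 fell in the neural list, which summed to 398 to 419 CPM and then 408 to 435 CPM. Schwann cell markers summed to 5.02 to 7.83 CPM at day 2 and 11.5 to 12.9 CPM at day 4 without overlap, and all 6 had log2 fold changes above 0, from 0.547 for Cdh19 to 1.17 for Foxd3, with adjusted p-values by edgeR from 0.264 to 0.746. The part of these markers in the results below was not tested.

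**Figure D2:**
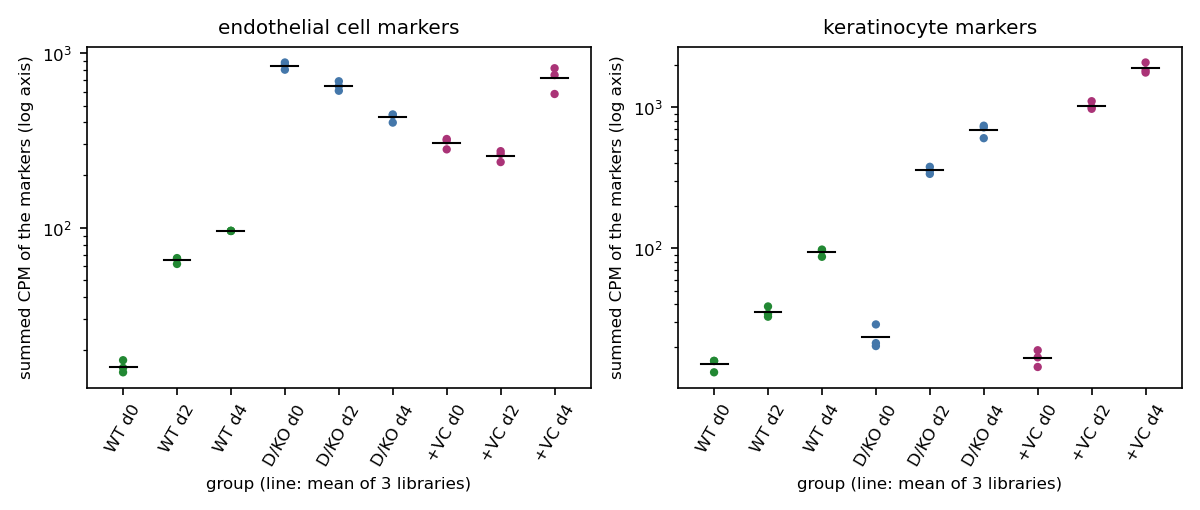
Summed CPM (log axis) of the 8 endothelial markers (left) and the 10 keratinocyte markers (right) in each library at days 0, 2 and 4 (d0, d2, d4) of WT cells, D/KO cells and D/KO cells with VC, with a line at the mean of 3 libraries. The endothelial sum falls to 399 to 445 CPM at day 4 in D/KO cells without VC and rises to 582 to 818 CPM with VC, while the keratinocyte sum, mostly Itgb4 at days 2 and 4, rises in all 3 arms.

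Many genes of cell division fell. Of 40 mitosis and spindle checkpoint genes, 19 fell and 0 rose by edgeR (31 and 0 at an unadjusted p below 0.05, 18 and 0 by DESeq2), with a median log2 fold change of -0.57. Without library 3 of day 4 the falls numbered 24. Bub1b, a kinase of the spindle checkpoint, read 12.9, 13.8 and 14.5 CPM at day 2 and 5.97, 7.26 and 8.58 CPM at day 4 (1.89-fold lower, adjusted p = 7.03e-05). Tpx2, which activates Aurora A on the spindle, read 30.1, 28.1 and 36.1 CPM and then 17.97, 14.5 and 23.6 CPM. Mki67, the proliferation marker Ki-67, was picked out after its values were seen and read 32.6, 32.9 and 46.7 CPM at day 2 and 14.4, 11.5 and 31.3 CPM at day 4, with library 3 of day 4 close to the day 2 level.

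Of 40 genes of DNA replication and S phase, 7 fell and 0 rose by edgeR (16 and 0 unadjusted, 7 and 0 by DESeq2), with a median log2 fold change of -0.34. Ccne1, the G1/S cyclin E1, went from 28.3, 28.4 and 24.5 CPM to 17.7, 19.0 and 18.7 CPM, and Uhrf1, which brings Dnmt1 to replicating DNA, from 13.9, 12.2 and 17.6 CPM to 9.23, 8.52 and 7.99 CPM. Dnmt1 itself fell by 0.48 on the log2 scale (adjusted p = 0.0126, not passing in 4 of 11 alternatives, with up to 0.104), and Dnmt1 and Uhrf1 were the 2 genes to pass among 11 tested for DNA methylation and the Tet enzymes. None of the 7 cyclin-dependent kinase inhibitors passed by edgeR (2 higher unadjusted, 1 higher by DESeq2, 1 higher without library 3 of day 4). Cdkn1a, which encodes p21, had a log2 fold change of 0.09 and Cdkn2a, which encodes p16 and p19, of -0.05.

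Promoters of the mitosis list are known for a short element, the cell cycle genes homology region, with the letters TTTGAA. The letters were searched for on both strands in the 250 bases before each start in the RefSeq promoter table (GRCm38.p6). Of the 34 members with an entry, 12 held a match (35.3%), against 18.3% of 27025 genes. The 2 windows below, from members that fell, were chosen for their match close to the start and show it in capitals in 30 bases, read 5′ to 3′ on the strand of the gene, as TTTGAA in Prc1 and as its reverse complement, TTCAAA, in Ube2c.
Ube2c (chr2:164769888-164769917, + strand): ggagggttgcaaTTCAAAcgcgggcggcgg
Prc1 (chr7:80294434-80294463, + strand): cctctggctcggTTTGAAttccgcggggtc
Ube2c encodes the ubiquitin-conjugating enzyme of the anaphase-promoting complex and Prc1 a crosslinker of the central spindle. Matches were found in 6 of 16 members that fell and in 6 of 18 that did not pass.

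Many genes of serine and amino acid supply that are known targets of the stress factor ATF4 also fell. Of 20 tested, 11 fell and 0 rose by edgeR (14 and 0 unadjusted, 11 and 0 by DESeq2, 9 and 0 without library 3 of day 4), with a median log2 fold change of -0.68. Phgdh, which takes the first step from glycolysis to serine (chr3:98220486-98247306, GRCm39), read 219, 214 and 205 CPM at day 2 and 71.4, 84.3 and 75.3 CPM at day 4 (2.76-fold lower, adjusted p = 1.38e-10). Psat1, which takes the next step, read 102, 100 and 114 CPM and then 40.3, 47.1 and 35.5 CPM (2.57-fold lower, adjusted p = 1.52e-08). In both genes the day 4 libraries lay below the lowest day 2 library by a wide margin. Psph, which completes the serine pathway, fell too, from 28.7, 33.4 and 32.7 CPM to 14.1, 19.0 and 18.51 CPM, as did Asns, Shmt2, Mthfd2, Trib3, Atf5, Slc7a5, Slc7a11 and Vldlr.

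ATF4 binds an amino acid response element with the core TGATGNAA, in which N is any base. The core or its reverse complement, TTNCATCA, was present in the same 250 bases in 6 of the 19 members with an entry (31.6%) and in 3.91% of 27025 genes, and in 3 of 10 members that fell against 3 of 9 that did not pass. Both windows (GRCm38.p6) come from members that fell and were chosen for their match, shown in capitals. Slc7a11, the cystine transporter, holds the core and then its reverse complement within 30 bases, and Asns makes asparagine.
Slc7a11 (chr3:50443614-50443863, - strand): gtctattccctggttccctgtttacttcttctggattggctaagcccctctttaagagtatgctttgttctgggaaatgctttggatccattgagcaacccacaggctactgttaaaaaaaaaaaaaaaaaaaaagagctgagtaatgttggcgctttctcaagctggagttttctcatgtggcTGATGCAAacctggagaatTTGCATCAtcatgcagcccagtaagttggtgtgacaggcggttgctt
Asns (chr6:7693214-7693243, - strand): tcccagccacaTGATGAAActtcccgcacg
Asns read 182, 185 and 182 CPM at day 2 and 95.4, 113 and 88.3 CPM at day 4 and Slc7a11 12.02, 11.3 and 12.3 CPM and then 8.09, 7.47 and 6.8 CPM. A match in these letters describes the sequence only.

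Of 32 genes of glycolysis and the hypoxia response, 11 fell, 3 rose and 18 did not pass, with a median log2 fold change of -0.32. Pgam1, a glycolytic mutase, read 621, 616 and 705 CPM at day 2 and 407, 414 and 400 CPM at day 4, and P4ha1, a collagen prolyl hydroxylase induced by hypoxia, fell 1.54-fold. Slc2a3, the glucose transporter GLUT3, and Egln3, an oxygen-sensing hydroxylase, went the other way, by log2 1.57 and 0.75. Among 24 heat shock and unfolded protein genes, 7 fell and Hspb1 alone rose, with Hspd1 and Pdia4 the falls with the smallest p-values. Cholesterol synthesis genes had 2 of 24 higher, Sqle and Srebf2, by 1.24-fold for Srebf2 and 1.23-fold for Sqle. Srebf2 lost its call in 6 of 11 alternatives (adjusted p up to 0.11) and Sqle in 5 of 11 (up to 0.16), and without library 3 of day 4 the list had 1 higher and 1 lower.

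**Figure D3:**
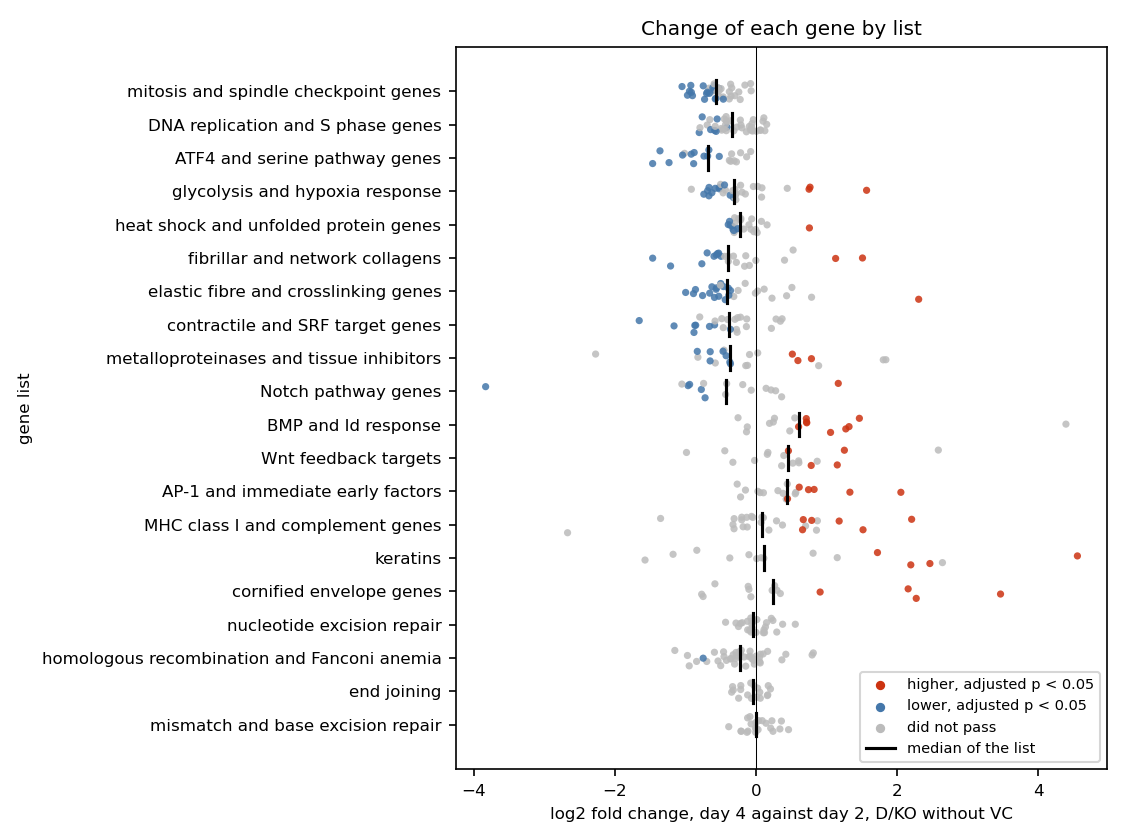
Log2 fold change from day 2 to day 4 of each tested gene in 20 lists, coloured by call and with a bar at the list's median. All 40 mitosis genes lie below 0, with a median of -0.57, the elastic fibre list holds 16 called lower and Eln alone called higher at 2.31, and the 4 repair lists at the bottom hold 1 called gene.

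Called matrix genes were mostly lower, with elastin the largest of the exceptions. Of 22 fibrillar and network collagens, 9 fell and 2 rose, with a median log2 fold change of -0.39 (-0.253 without library 2 of day 4), and without library 3 of day 4 the falls numbered 12. Col18a1, the collagen from which endostatin is cut, fell 2.76-fold from 335, 338 and 368 CPM to 108, 101 and 168 CPM. Col5a3 fell 2.32-fold, and the 2 that rose were Col14a1, a fibril-associated collagen, and Col17a1, the collagen of hemidesmosomes. Col1a1, the main collagen of skin fibroblasts, was picked out after its values were seen and fell by 0.69 on the log2 scale (adjusted p = 0.00275). The cassette with the 4 factors sits in the same locus.

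Of 28 elastic fibre and crosslinking genes, 16 fell and 1 rose (16 and 3 without library 3 of day 4). P4ha2 went from 192, 203 and 227 CPM to 95.4, 100 and 116 CPM, and P4ha1, the other prolyl hydroxylase with the smallest p-values, fell as well. Picked out after their values were seen, the lysyl hydroxylases Plod1, Plod2 and Plod3 and the lysyl oxidases Lox, Loxl1 and Loxl2 were also among the falls. Eln, elastin itself (chr5:134731447-134776177, GRCm39), was the rise, from 342, 355 and 207 CPM to 1657, 1662 and 1155 CPM (4.95-fold, adjusted p = 1.3e-06). The day 4 libraries of Eln all lay far above the day 2 libraries, and a predicted gene, Gm30003, overlaps it on the opposite strand. Metalloproteinases and their inhibitors had 7 of 21 lower and 3 higher, with Timp1 and Timp2 lower and Timp3 higher (1.51-fold), whose call was lost in 3 of 11 alternatives (adjusted p up to 0.127).

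Contractile genes, many of them targets of the actin-sensing factor SRF, had 8 of 24 lower and 0 higher by edgeR (13 lower and 1 higher unadjusted, 7 and 0 by DESeq2, 11 and 1 without library 3 of day 4). Cnn1, the smooth muscle calponin, fell 3.15-fold from 18.3, 18.45 and 29.3 CPM to 4.89, 6.64 and 9.44 CPM, and Tpm2, a tropomyosin, from 148, 160 and 184 CPM to 79.6, 93.1 and 99.2 CPM. Direct TGFb targets, which share members such as Col1a1 and Fn1 with other lists, had 10 of 24 lower and 2 higher. Tgfbi fell by 0.85 and Ltbp2 by 0.89 on the log2 scale, while Ccn1 and Bhlhe40 rose. Bhlhe40 lost its call in 4 of 11 alternatives (adjusted p up to 0.0661) and Ccn1 in 2 (up to 0.181), those without library 3 of day 2 and library 1 of day 4.

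Some members of the BMP pathway rose. Of 17 genes of the BMP and Id response, 8 rose and 0 fell by edgeR (9 and 0 unadjusted, 8 and 0 by DESeq2, 6 and 1 without library 3 of day 4), with a median log2 fold change of 0.60 (0.312 without library 3 of day 4). Id1, Id2, Id3 and Id4, which encode inhibitors of basic helix-loop-helix factors and are read out as BMP targets, all rose. Id2 read 14.8, 14.2 and 20.4 CPM at day 2 and 36.3, 41.7 and 41.5 CPM at day 4 (2.42-fold, adjusted p = 6.11e-06). Atoh8, a helix-loop-helix target of BMP signalling in endothelium and liver, rose 2.49-fold from 14.3, 17.9 and 25.5 CPM to 46.4, 50.3 and 47.5 CPM. The ligand gene Bmp2 and the inhibitors Smad6 and Nog rose as well, while Bmp4 had a log2 fold change of 0.26 that did not pass.

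Wnt feedback targets had 4 of 17 higher and 0 lower by edgeR (7 higher and 1 lower unadjusted, 5 and 1 by DESeq2). Nkd1 went from 2.13, 2.21 and 1.8 CPM to 4.72, 4.6 and 4.32 CPM. Axin2, the scaffold of the destruction complex and the usual readout of Wnt signalling, was low at both days, with 0.978, 0.754 and 1.25 CPM and then 1.47, 1.83 and 3.88 CPM, and it did not pass without library 3 of day 4, without library 2 of day 2 or with only the groups compared (adjusted p up to 0.186). Among 16 Notch pathway genes, 5 fell and 1 rose (3 and 1 without library 3 of day 4). Dll4 and the endothelial receptor gene Notch4 fell together with the endothelial markers above, whose part was not tested, whereas the ligand gene Jag2 rose from 8.51, 9.92 and 8.78 CPM to 19.2, 23.4 and 18.45 CPM.

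Some epithelial genes rose. The median log2 fold change of the keratins was 0.11, after 2.84 from day 0 to day 2. That of the cornified envelope genes was 0.246, after 5.85. Of 15 keratins 4 rose and 0 fell by edgeR (5 and 0 unadjusted, 4 and 0 by DESeq2), and of 14 cornified envelope genes also 4 and 0 (4 and 0 unadjusted, 4 and 0 by DESeq2). Krt80, a keratin of stratified epithelia (chr15:101245325-101268043, GRCm39), read 12.1, 11.8 and 13.7 CPM at day 2 and 67.0, 70.8 and 70.7 CPM at day 4. Krt14, of basal keratinocytes, rose 3.3-fold to between 37.8 and 54.0 CPM. Tgm1, the transglutaminase that crosslinks the envelope, rose 4.83-fold and Nccrp1 4.46-fold. Krt17 and Tgm3, picked out after their values were seen, reached 5.05 and 5.43 CPM and 5.43 and 6.64 CPM in libraries 1 and 2 of day 4 but 0.647 and 1.29 CPM in library 3.

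Of 17 desmosome and junction genes, 2 rose and 1 fell by edgeR (4 and 2 by DESeq2). Perp, a desmosomal protein and p53 target, rose 4.21-fold from 14.6, 15.03 and 16.52 CPM to 64.5, 76.1 and 53.7 CPM, and Pkp1, a desmosomal plakophilin, also rose while Gja1, connexin 43, fell. The hemidesmosome genes Itgb4 and Lamb3 were 2 of the 3 rises among 25 integrins and laminins, with 4 lower, and Itgb4 went from 317, 336 and 350 CPM to 691, 656 and 556 CPM. Of 12 tested genes of the mesenchymal to epithelial transition, Krt8 and Spint2 rose and Cdh3 fell. Cdh1, E-cadherin, averaged 2.0 CPM at day 2 and 3.54 CPM at day 4 and did not pass (adjusted p = 0.0506). Ehf was the single rise among 9 epithelial transcription factors, and Fn1 and Cdh2 fell while Prrx1 rose among 14 mesenchymal factors and cadherins. Cdh2 overlapped between the days and lost its call in 7 of 11 alternatives, DESeq2 among them (adjusted p up to 0.299). Calls were also lost for Gja1 in 6 of 11 (up to 0.307), and for Ehf (up to 0.159), Spint2 (up to 0.172) and Cdh3 (up to 0.11) in 5, 5 and 4 of 10.

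Most pluripotency genes were barely detected. Of 29 listed, 8 passed the filter on low counts, with Fgf4 and L1td1 higher and Klf2 lower, which lost its call in 4 of 11 alternatives (adjusted p up to 0.181). L1td1, an RNA-binding protein of embryonic stem cells, read 6.44, 4.53 and 6.49 CPM at day 2 and 15.5, 17.7 and 15.4 CPM at day 4. Zfp42, Dppa5a, Cripto and Lin28a were at 0 in all 6 libraries, and the pluripotent cell markers together gave 0.863 to 1.16 CPM at day 2 and 6.58 to 7.49 CPM at day 4, nearly all of it from Fgf4. Of 23 fibroblast identity genes 3 rose and 2 fell, among them Nt5e and Tbx15 up and Pdpn and Lum down. Thy1 had a log2 fold change of -0.33 that did not pass.

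Some immediate early genes and some genes of MHC class I and complement rose. Of 18 AP-1 and immediate early factors, 6 rose and 0 fell by edgeR (8 and 0 unadjusted, 6 and 0 by DESeq2, 4 and 0 without library 3 of day 4). Fos read 230, 226 and 106 CPM at day 2 and 530, 598 and 287 CPM at day 4, so that library 3 was the lowest on both days, and Mafk rose 1.36-fold. Of 27 genes of MHC class I and complement, 6 rose and 0 fell by edgeR (7 and 1 unadjusted, 7 and 0 by DESeq2, 7 and 2 without library 3 of day 4). Cd55, the decay-accelerating factor, rose 1.73-fold. Among 29 interferon-stimulated genes only Oas2 passed, and it lost its call without library 1 or 3 of day 2 or library 2 of day 4 (adjusted p up to 0.119).

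The secretory genes linked to senescence had 6 of 30 lower and 1 higher (9 and 1 without library 3 of day 4). Igfbp5 fell 2.34-fold from 839, 841 and 719 CPM to 347, 270 and 407 CPM, and Plau, the urokinase, fell too. Igfbp3 was the rise, from 551, 562 and 422 CPM to 1081, 1049 and 950 CPM. Of 28 p53 targets 3 rose and 3 fell, with Perp and Btg2 higher and Tnfrsf10b and Zmat3 lower. Zmat3 lost its call in 5 of 11 alternatives (adjusted p up to 0.141).

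Genes of DNA repair, the process in which Ercc1 acts, held 1 call in this interval. Over 109 genes of 4 repair lists, Fancd2 alone passed, lower by 0.75 on the log2 scale from 4.49, 3.37 and 5.73 CPM to 2.66, 2.61 and 2.81 CPM, and it lost its call in 8 of 11 alternatives, among them 5 of the 6 that left out 1 library (adjusted p up to 0.273). Nucleotide excision repair had 0 of 26 called by edgeR (1 higher and 1 lower unadjusted, 0 by DESeq2, 1 lower without library 3 of day 4), end joining 0 of 18 (1 lower unadjusted, 0 by DESeq2) and mismatch and base excision repair 0 of 22 (1 higher unadjusted, 0 by DESeq2, 1 higher without library 3 of day 4). The remaining list, homologous recombination and the Fanconi anemia pathway, had 43 members and a median log2 fold change of -0.22 (-0.143 without library 1 of day 4), with 7 lower and 1 higher at an unadjusted p below 0.05 and 1 lower by DESeq2. In 7 of its members the day 4 libraries lay below those of day 2 without overlap and in 2 above, against 13.9% and 11.4% of all genes. Over all 109 the median was -0.0646.

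Antioxidant genes under NRF2 were called in both directions, with 4 of 23 higher and 3 lower by edgeR (6 and 3 by DESeq2), with Gsta4, a glutathione transferase, up and Gsr, glutathione reductase, down. Fatty acid synthesis had Me1 higher and Scd2 lower among 14, the H3K9 and polycomb enzymes had Ezh1 and Cbx7 higher among 33, and the Hox genes had Hoxb4 and Hoxb9 lower among 34. Hoxb4 lost its call in 9 of 11 alternatives, with any 1 of the 6 libraries left out among them (adjusted p up to 0.163), Cbx7 in 6 of 11 (up to 0.213) and Hoxb9 in 5 of 11 (up to 0.118). Mitochondrially encoded genes had 0 of 12 called by edgeR (0 unadjusted, 0 by DESeq2) and nucleolar ribosome biogenesis genes 0 of 33 (6 lower unadjusted, 0 by DESeq2, 3 lower without library 3 of day 4).

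In part of the genes the same cells changed differently with VC. The test of the difference between the day 2 to 4 change without VC and that with VC called 461 genes higher (2.91%) and 514 lower (3.25%) without VC, 6.16% of those tested in all. Of the 712 rises without VC, 296 (41.6%) were among the 1228 rises with VC (24.1% of these, and 7.76% of all genes rose with VC), and of the 803 falls 332 (41.3%) were among the 1241 falls with VC (26.8% of these, with 7.84% of all genes lower). Opposite calls were fewer, with 47 of the rises lower and 60 of the falls higher with VC.

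The median change of the mitosis list had opposite signs in the 2 arms. With VC, 25 of its 40 genes rose and the median log2 fold change was 0.63, and the difference between arms was called lower without VC in 32 of 40 genes, against 3.25% of all genes. Genes of serine and amino acid supply had 10 of 20 lower without VC in the same test, and Psat1, which fell to 41.0 CPM without VC, rose from 135 ± 19.9 CPM to 204 ± 17.1 CPM with it (SD, n = 3, adjusted p = 1.58e-08 for the difference). The Notch list had 7 of 16 lower without VC. Keratins had 6 of 15 lower without VC, where Krt8 rose by log2 2.19 without VC and 5.39 with it.

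Of the 8 endothelial markers, Pecam1, Cdh5, Kdr and Erg were called lower without VC and higher with it. Pecam1 fell without VC but rose from 72.7 ± 6.09 CPM to 247 ± 38.96 CPM with VC (log2 difference -2.29 ± 0.19, adjusted p = 2.49e-10). Tie1, a receptor kinase of endothelium, went from 42.2 ± 6.18 CPM to 250 ± 57.5 CPM with VC (difference -2.99 ± 0.24, adjusted p = 2.35e-10), and Notch4 from 19.9 ± 0.455 CPM to 72.9 ± 17.8 CPM. The change of Tie1 without VC did not pass (log2 -0.421, adjusted p = 0.113 by edgeR). The arms differed already at day 0, when the endothelial markers summed to 281 to 322 CPM with VC and 802 to 882 CPM without. Emcn fell in both arms, by 1.17 and 1.23 on the log2 scale, and for Cldn5 the difference of -1.28 ± 0.56 did not pass. Tek had log2 fold changes of 0.186 without VC and 0.395 with it, and the difference did not pass (adjusted p = 0.526 by edgeR).

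The smallest p-value among the genes named for this difference was that of Avil, the actin-severing protein advillin, which fell from 30.2, 30.4 and 40.2 CPM to 8.74, 8.05 and 8.79 CPM without VC and rose from 11.2 ± 2.32 CPM to 77.6 ± 9.2 CPM with VC (difference -4.78 ± 0.25, adjusted p = 4.03e-16). Krt19 of simple epithelia rose from 8.79 ± 3.14 CPM to 80.0 ± 6.59 CPM with VC and had a log2 fold change of -0.37 without it. In the other direction, Penk, the proenkephalin gene, rose from 29.0, 29.7 and 22.4 CPM to 145, 146 and 91.9 CPM without VC and fell from 62.6 ± 15.01 CPM to 33.8 ± 5.18 CPM with it. Itgbl1, Tnfrsf11b (osteoprotegerin), Sbspon and Igfbp3 likewise rose without VC and fell with it, with differences of 2.20, 1.95, 2.55 and 2.03 on the log2 scale.

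**Figure D4:**
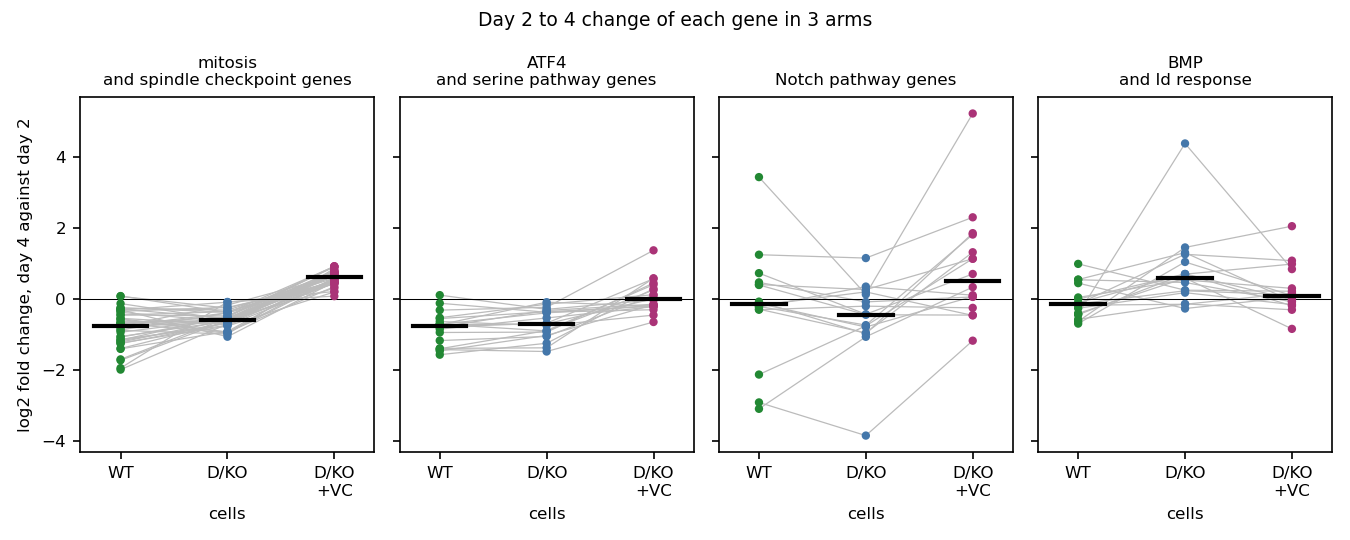
Log2 fold change from day 2 to day 4 of each gene in 4 lists in WT cells, D/KO cells and D/KO cells with VC, with lines joining a gene and a bar at the median. The median of the mitosis list is -0.75 in WT, -0.57 in D/KO and 0.63 in D/KO with VC, and that of the BMP and Id response is -0.13, 0.60 (0.312 without library 3 of day 4) and 0.11.

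Against WT cells, the day 2 to 4 change was called different in 575 genes (3.63%), 298 higher and 277 lower in D/KO cells. This count was unstable, with 105 higher and 107 lower without library 2 of D/KO day 4, 104 and 107 without library 2 of WT day 2, 807 and 828 without library 3 of D/KO day 4, and 668 and 616 without library 1 of WT day 2. Leaving out library 1 of D/KO day 4, or any of the D/KO day 2 or WT day 4 libraries, gave 138 to 173 higher. The median of the mitosis list was below 0 in both lines, at -0.57 and -0.75, as was that of the list of serine and amino acid genes, at -0.68 and -0.75.

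Some members of the BMP and Id response differed between the lines, with 6 of 17 called higher in D/KO cells against 1.88% of all genes. Id2 rose in D/KO cells by log2 1.27 and had a log2 fold change of -0.13 in WT cells (adjusted p = 0.00162 for the difference), and Id1, Id3, Smad6, Nog and Bmp2 were the others. Of the genes with the smallest p-values, Cth, the cystathionine lyase that makes cysteine, fell from 10.9 ± 1.29 CPM to 2.44 ± 0.709 CPM in WT cells and had a log2 fold change of 0.20 in D/KO cells (difference 2.36 ± 0.25, adjusted p = 2.4e-07). Krt80 stayed at 1.95 ± 0.409 and 1.71 ± 0.714 CPM in WT cells, and the difference was 2.67 ± 0.33. Cxcl14, a skin chemokine, Gsta4 and Agtr1a, the angiotensin receptor gene, rose in D/KO cells, and their log2 fold changes were -0.21, -0.62 and -0.15 in WT cells.

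Genes lower in the D/KO change included several that endothelium uses. Plxnd1, a semaphorin receptor of vessels, fell from 159, 149 and 178 CPM to 49.0, 44.3 and 58.4 CPM in D/KO cells and averaged 39.4 ± 4.71 and 53.2 ± 2.42 CPM in WT cells (difference -2.11 ± 0.18, adjusted p = 3.1e-09). Stab1, a scavenger receptor of sinusoidal endothelium and macrophages, fell from 133, 125 and 155 CPM to 40.4, 44.6 and 37.8 CPM against 9.35 ± 1.19 and 10.2 ± 1.18 CPM in WT cells, and Ets1, a transcription factor of endothelium and lymphocytes, had a difference of -1.04. Of the 8 endothelial markers all but Tek were near 0 in WT cells, and the part of endothelial RNA in these differences was not tested. Pi15 and Serpina3n were also lower in the D/KO change, by log2 differences of -1.55 and -0.90.

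Against day 0, 4345 genes (27.4%) were called at day 2 and 5858 (37%) at day 4. The second interval was set against the first, from day 0 to day 2, in a test that shares the day 2 libraries. It called 467 genes higher (2.95%) and 891 lower (5.63%) in the second interval, 8.58% in all, and the higher count was 264 without library 2 and 289 without library 1 of day 2. The median log2 fold change of the mitosis list was 0.555 in the first interval and -0.57 in the second, and 22 of 40 were called in the test of the difference. All 4 reprogramming factors were called, with a median log2 fold change of 3.47 in the first interval and -0.10 in the second. Avil, Lyve1 and Stab1 fell in both intervals, Avil from 73.9 to 78.8 CPM at day 0. Phgdh had a log2 fold change of -0.06 in the first interval and -1.47 in the second.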

How the data were processed

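The authors trimmed reads with Trim Galore, checked them with FastQC, aligned them to GRCm39 with HISAT2 and counted them per gene with featureCounts of Subread. Versions, annotation release and strand setting are not given in the sources used here. What the authors deposited are unnormalised read counts, one value per gene and library, so overlapping genes may share reads. Of 56980 identifiers, 56236 (98.7%) were named through GENCODE M39.

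The 36 reprogramming libraries (12 groups of 3) were fitted together in R 4.3.3 with edgeR 4.0.16 (TMM, filterByExpr with a minimum count of 10 and a total of 15, 15832 genes, quasi-likelihood F-test, two-sided), with Benjamini-Hochberg adjustment over all genes. Differences between arms were contrasts in the same fit. The fit was also run on counts simulated from its own model and dispersions. Such counts hold no effects of single libraries, so no support for the calls is drawn from that run. Groups followed the labels. Alternatives were DESeq2 1.42.0, its size factors, other filters, only the groups compared, an absolute log2 value of at least 1, and each library left out. The list counts without library 3 of day 4 were chosen after seeing the data.

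Which libraries to describe and which gene lists to use was chosen with earlier results of these data known, and the libraries were then found by their labels. Genes were named by rule: Ercc1 and the factors, the 12 largest rises and falls without overlap and with at least 5 CPM, in each list the 2 smallest p-values each way, and the 5 smallest on each side of both differences. Some genes that the rule names are not reported here. Others are said to have been picked afterwards or complete a count. The biological coefficient of variation was 0.132. The variance between libraries of a group was 3.179 to 56.15 times counting noise, as a mean over genes with at least 20 counts in a pair. Genes with many counts weigh most in this mean, so it does not give the part of counting error in genes at low levels.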

Additional observations from a re-analysis of the deposited data

Results flagged for a closer look

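Results were listed here where the day 2 to 4 change of D/KO cells without VC differed from that of another arm by a test of the difference itself. Against WT cells, 298 genes were higher and 277 lower. The genes named for this difference were Cth (2.36 on the log2 scale), Cxcl14 (1.59), Gsta4 (1.77), Krt80 (2.67), Agtr1a (1.69), Plxnd1 (-2.11), Ets1 (-1.04), Stab1 (-1.88), Pi15 (-1.55) and Serpina3n (-0.898).

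Against the same cells with VC, 461 genes were higher and 514 lower. The named ones were Itgbl1 (2.2), Tnfrsf11b (1.95), Sbspon (2.55), Penk (3.13), Igfbp3 (2.03), Avil (-4.78), Krt19 (-3.56), Tie1 (-2.99), Pecam1 (-2.29) and Notch4 (-2.83). Against the first interval, 467 genes were higher and 891 lower in the second. Groups of 3 libraries are too small for the test of single outlying libraries.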

How the results depend on the processing

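With an absolute log2 value of at least 1, the counts of higher and lower genes were 251 and 198 for day 4 against day 2, 112 and 95 for the genotype difference, 208 and 359 for the VC difference, and 240 and 594 for the second interval against the first. The genotype difference called 605 and 572 genes with no filter and 575 and 497 with DESeq2, and the second interval called 280 higher with only the groups compared. With 1 library left out, the counts ranged from 475 to 764 higher and 500 to 915 lower for day 4 against day 2, 104 to 807 and 107 to 828 for the genotype difference, 354 to 546 and 389 to 590 for the VC difference, and 264 to 476 and 623 to 906 for the second interval. The cause was not tested. Without library 2 of day 4, the log2 fold changes of Pou5f1, Sox2, Klf4 and Myc were 0.117, 0.101, 0.0323 and 0.0154, none past the test, and with 1 library left out they lay between -0.274 and 0.117, -0.336 and 0.101, -0.31 and 0.0323, and -0.275 and 0.0154. Of the alternatives for single named genes in day 4 against day 2, 1071 kept direction and call, 104 lost the call and 4 were those just given. Besides the genes whose losses stand beside their values, Btg2, Fos and Nkd1 lost the call without library 3 of day 2, Col17a1 and Tbx15 without library 1 of day 2, Hspb1 without library 2 of day 4, and Gsr and Timp2 with only the groups compared, each at an adjusted p of 0.0992 or less. All 168 for the genotype difference and 166 for the VC difference kept both. Requiring 10 counts in every library removed all 12 largest rises and 11 of the 12 largest falls, so it gives no value for them. Counts at low levels, such as Axin2 and Fancd2, rest on few reads. No paired analysis was possible because the labels give no replicate number that groups share.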
